A study of Mus musculus with 12 samples.

Results

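The transcripts described here are those of the proteasome, the protease that degrades ubiquitin-tagged proteins, in mouse CD8+ T cells treated with an inhibitor of EZH2. They were chosen by name alone: every gene symbol made of Psm, a letter from a to g and a number, which gave 48 of the 24421 symbols counted. By role these were 16 subunits of the 20S core outside the immunoproteasome, 3 immunoproteasome subunits, 17 subunits of the 19S cap, 7 assembly chaperones, and 5 genes of core activators and of an inhibitor. The cells were CD8+ T cells from the spleens of C57BL/6 mice, an inbred strain. One group had received DMSO, the solvent control (6 libraries), and the other an EZH2 inhibitor, here EZH2i (6 libraries). Polycomb repressive complex 2 silences genes by methylating histone H3, and EZH2 is its catalytic subunit. The sources used here do not give the inhibitor's name, dose or duration, and the labels list no engineered allele in either group. Nor do they state whether the libraries of a group came from different mice or cultures, so p-values measure the spread between libraries only, which may be technical. As in any bulk sample, fewer cells of a type and less RNA per cell cannot be told apart.

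The 20S core is a barrel of stacked alpha and beta rings, with the proteolytic sites on the beta subunits Psmb5, Psmb6 and Psmb7. In lymphocytes and after interferon signalling these are replaced by Psmb8, Psmb9 and Psmb10, which form the immunoproteasome and change the peptides available to class I MHC. The 19S cap recognises ubiquitin chains, removes them, and unfolds the substrate with a ring of ATPases (the Psmc genes). T cells that expand after activation make and turn over much protein and are known to depend on proteasome activity.

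RefSeq promoter sequences of build GRCm38.p6 were found by symbol for 40 of the 48 genes. Those of Psma1 and Psmd4, which fell, and of Psmb6, a constitutive catalytic subunit, were chosen after their values were seen and are shown because each carries letters of a motif named for factors that act on proteasome or interferon-responsive genes. Each window is the 250 bases before the RefSeq start, 5′ to 3′ on the strand of the gene, and the capitals mark every match to the motifs spelled out after the sequences. The windows are chr7:114276117-114276366 (minus strand) for Psma1, chr3:95042615-95042864 (minus strand) for Psmd4 and chr11:70525107-70525356 (plus strand) for Psmb6.
Psma1: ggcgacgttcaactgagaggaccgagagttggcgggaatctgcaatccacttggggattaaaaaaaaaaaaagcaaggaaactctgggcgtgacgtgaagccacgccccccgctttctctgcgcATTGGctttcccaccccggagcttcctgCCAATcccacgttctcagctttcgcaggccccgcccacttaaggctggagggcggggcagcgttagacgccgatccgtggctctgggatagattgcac
Psmd4: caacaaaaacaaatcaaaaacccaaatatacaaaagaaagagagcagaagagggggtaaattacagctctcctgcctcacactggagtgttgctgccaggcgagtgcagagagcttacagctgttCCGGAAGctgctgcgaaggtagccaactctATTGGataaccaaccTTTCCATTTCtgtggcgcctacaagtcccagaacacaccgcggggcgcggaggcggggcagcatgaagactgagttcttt
Psmb6: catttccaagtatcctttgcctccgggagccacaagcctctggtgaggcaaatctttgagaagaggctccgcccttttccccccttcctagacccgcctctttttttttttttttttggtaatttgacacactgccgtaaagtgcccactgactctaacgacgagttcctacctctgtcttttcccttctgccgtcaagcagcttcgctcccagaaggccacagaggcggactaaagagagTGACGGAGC
The 6 motifs were searched on both strands, with any overlap between motifs allowed. CCAAT, the letters bound by NF-Y, was in 14 of the 40 member promoters, against 34.5% of 27025 RefSeq promoters of the same length. CCGGAAG, an ETS factor motif, was in 11 of 40, against 7.05% of all promoters, and a motif of nuclear respiratory factor 1, GCGC and TGCGC with any 1 base between, was in 6 of 40, against 3.86%. TGACNNNGC, part of the element bound by NFE2L1, which induces proteasome genes, was in 5 of 40, against 10.1%. An interferon-response motif, GAAA and again GAAA after any 2 bases, was in 3 (Psmd4, Psmd9 and Psmb3), against 3.04%. TTCNNNGAA, the motif of STAT factors, was in 2 (Psmg1 and Psmb8), against 7.18%. Psma1 holds CCAAT on both strands, Psmd4 holds the ETS, CCAAT and interferon-response letters, and Psmb6 holds the NFE2L1 letters next to its start. For 5 of the 40 (Psmb8, Psmb9, Psmb11, Psma4 and Psmd13) the whole window lies in annotated exons, and they are counted here all the same. A match is a description of letters only.

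The 12 libraries held 17215483 to 31206228 counts. The library numbered 6 of each group stood apart in these genes. The 48 genes took 0.784% of the counts of DMSO library 6, against 0.595% to 0.638% in the other 5 DMSO libraries, and 0.793% of EZH2i library 6, against 0.516% to 0.580% in the other 5. Of the 46 genes that passed the filter on low counts and were tested, DMSO library 6 was the highest in 38 and the lowest in 1 (Psmb9), where 35.7% of all tested genes had their DMSO maximum in that library. EZH2i library 6 was the highest in 42 of 46, against 36.5% of all tested genes. All 17 cap genes were highest in DMSO library 6. Marker genes checked the cell type and its possible neighbours. The 4 CD8 T cell markers found (Cd3e, Cd3d, Cd8a and Cd8b1) summed to 2565 to 3459 CPM (counts scaled to the size of the library) in DMSO and 1919 to 2897 CPM in EZH2i, with library 6 the lowest of each group. Cd8a was called lower (adjusted p = 0.00129). Summed B cell markers were 19.2 to 25.2 CPM in DMSO and 14.8 to 21.8 CPM in EZH2i, nearly all of it from Cd79b (14.5 to 25.2 CPM over the 12 libraries), while Ms4a1 and Pax5 had at most 5 counts in any library. Summed myeloid and dendritic markers were 4.35 to 11.6 CPM and 6.97 to 20.8 CPM, with 2 of 7 called higher (Itgam and Itgax). Itgam was at 1.67 to 7.06 CPM in DMSO and 4.40 to 14.2 CPM in EZH2i. Cd68 was not called, at 2.56 to 5.59 CPM and 1.52 to 4.81 CPM. Csf1r, Adgre1 and Flt3 had at most 3 counts in any library. The CD4 T cell markers gave 17.2 to 22.8 CPM and 23.7 to 34.7 CPM, with 1 of 3 called higher (Zbtb7b), and Cd4 itself had at most 8 counts in any library. NK cell markers gave 3.76 to 4.94 CPM and 6.66 to 12.2 CPM, with 1 of 3 called higher (Klrb1c). Ncr1 had at most 3 counts in any library, and Klre1 was at 3.05 to 4.31 CPM in DMSO and 2.72 to 4.29 CPM in EZH2i. The erythroid genes Hbb-bs and Hba-a1 were at 0 counts in all 12 libraries. The part of these markers in the proteasome results was not tested.

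**Figure D1:**
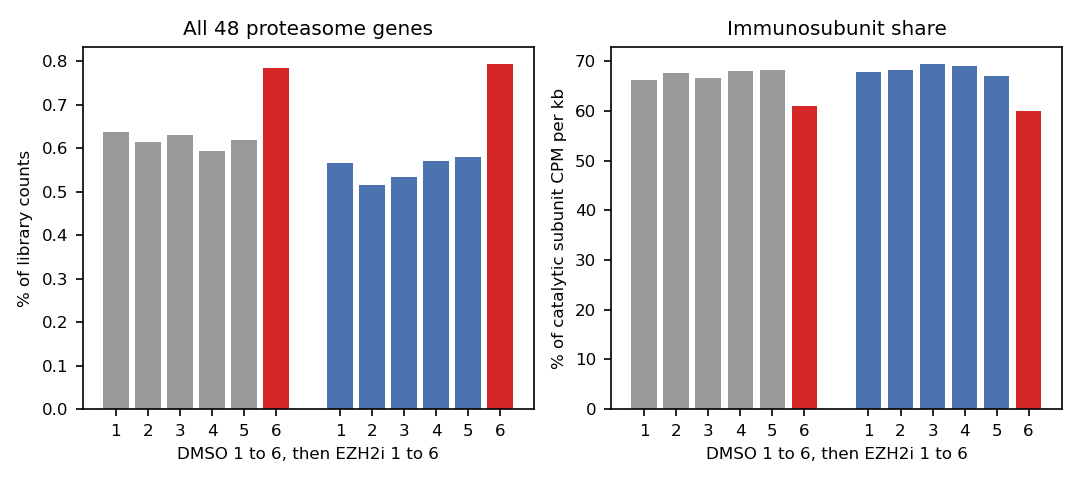
Share of library counts in the 48 proteasome genes (left, percent) and share of the immunosubunits among the catalytic subunits per length (right, percent), 1 bar per library, DMSO 1 to 6 and then EZH2i 1 to 6, with number 6 in red. Library 6 of each group has the highest share of proteasome counts and the lowest immunosubunit share.

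Proteasome transcripts were mostly lower with EZH2i, by small amounts. Of the 46 tested genes, 42 had a mean difference below 0 and 4 above 0 (Psmb9, Psme4, Psmg3 and Psmg4), with a median log2 fold change of -0.20 and a range of -0.41 to 0.23. The median over all 11727 tested genes was -0.01. With the test on group alone (edgeR's quasi-likelihood test, Benjamini-Hochberg adjusted p under 0.05), 4 members fell (Psma1, Psmb1, Psmc3 and Psmd4), 0 rose and 42 were not called. An unadjusted p under 0.05 was found for 10 of the 46 members, and for 3805 of all 11727 tested genes. Over all genes 6.05% were called lower and 13.3% higher. Among the 2932 most highly expressed genes, with a mean of at least 77.8 CPM, which include 36 of the 46 members, 11.7% were called lower and 3.44% higher. Their median log2 fold change was -0.11, and their shares were taken for this test with all 12 libraries only. The libraries carry replicate numbers 1 to 6 in both groups, and same-numbered libraries deviated together (r across genes of 0.289 to 0.894). Without number 6 the r of numbers 1 to 5 ran from -0.0278 to 0.428, so their pairing is not settled. With the number as a block, 31 members fell and 1 rose (Psme4), where 24.3% of all genes were called lower, 24.7% higher and 49% in either direction. Without both libraries numbered 6, 34 fell and 0 rose, against 20.9% of all genes lower. With EZH2i library 6 alone left out 29 fell, against 15.4% of all genes lower. Leaving out any other single library gave 0 (EZH2i library 3 or 4) to 7 falling (DMSO library 4, where Psme4 also rose). With upper-quartile scaling 1 member fell, and the same test over all genes called 1800 higher and 347 lower in place of 1557 and 709. No member had all 6 EZH2i libraries below all 6 DMSO libraries, a pattern 2.74% of all genes showed, and none had them all above, as 7.5% of all genes did. Among the libraries numbered 1 to 5 it was met by 18 members, against 11.7% of all genes.

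**Figure D2:**
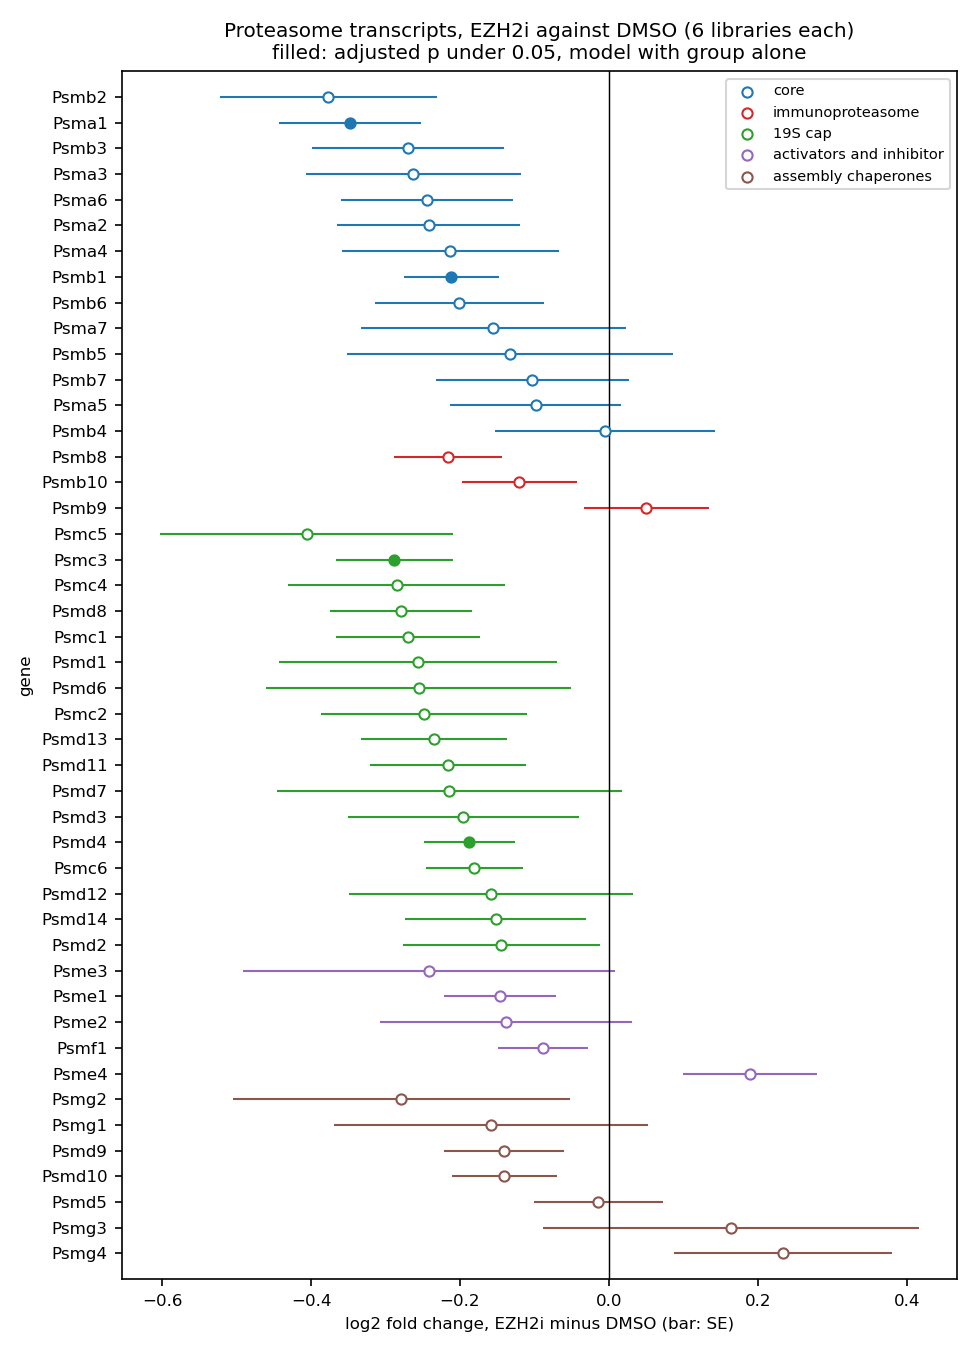
Log2 fold change (EZH2i minus DMSO, x axis) with its SE for each of the 46 tested genes (y axis), coloured by role, from the model with group alone, 6 libraries per group. Most points lie left of 0, and the filled points are Psma1, Psmb1, Psmc3 and Psmd4.

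The 4 genes called lower belong to 2 assemblies. Psma1 is an alpha ring subunit of the core (chromosome 7, 114264606 to 114276118, GENCODE M21 on GRCm38), whose promoter is the first shown. Its lowest, median and highest levels were 172, 203 and 243 CPM in the DMSO libraries and 145, 151 and 196 CPM in the EZH2i libraries. The ranges overlapped, since DMSO library 4 was at 172 CPM and EZH2i library 6 at 196 CPM, but each EZH2i library was below the DMSO library of its number. The means were 204 ± 23.3 CPM and 160 ± 20.1 CPM (SD, n = 6 each), a log2 fold change of -0.35 (SE 0.095, adjusted p = 0.0217, edgeR). Psmb1, a noncatalytic beta ring subunit (chromosome 17, 15475021 to 15499751), ran from 228 through a median of 241 to 259 CPM in DMSO and from 185 through 209 to 234 CPM in EZH2i. Only EZH2i library 6, at 234 CPM, reached into the DMSO range. Its log2 fold change was -0.21 (SE 0.063, adjusted p = 0.0327), lower in 6 of 6 numbers.

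Psmc3, an ATPase of the cap's base (chromosome 2, 91054009 to 91066369), had lowest, median and highest levels of 156, 168 and 193 CPM in DMSO and 127, 133 and 168 CPM in EZH2i. Again EZH2i library 6 was the one inside the DMSO range. The log2 fold change was -0.29 (SE 0.079, adjusted p = 0.0210), lower in 6 of 6 numbers. Psmd4, a ubiquitin receptor in the base (chromosome 3, 95032694 to 95042614), whose promoter is the second shown, ran from 114 through 120 to 128 CPM in DMSO and from 95.5 through 105 to 118 CPM in EZH2i. The only EZH2i library within the DMSO range was number 6, at 118 CPM. Its log2 fold change was -0.19 (SE 0.061, adjusted p = 0.0476), lower in 6 of 6 numbers. With the replicate block (values called blocked from here on) the adjusted p-values were 6.97e-05 for Psma1, 0.00321 for Psmb1, 0.000233 for Psmc3 and 0.00602 for Psmd4. The calls were close to the threshold without it: with upper-quartile scaling Psma1 alone kept its call (adjusted p = 0.0416, against 0.123 for Psmb1, 0.0507 for Psmc3 and 0.174 for Psmd4), and with a filter of 5 CPM in at least 6 libraries none of the 4 did (0.0591, 0.111, 0.0689 and 0.160). Leaving out EZH2i library 3 or 4 alone ended all 4 calls. The call of Psma1 was also lost without EZH2i library 2 or 5, and that of Psmc3 without EZH2i library 1. Psmb1 kept its call without DMSO library 2, 4 or 6 or EZH2i library 6, and Psmd4 without DMSO library 4 or EZH2i library 6, and both lost it without any 1 of the others.

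**Figure D3:**
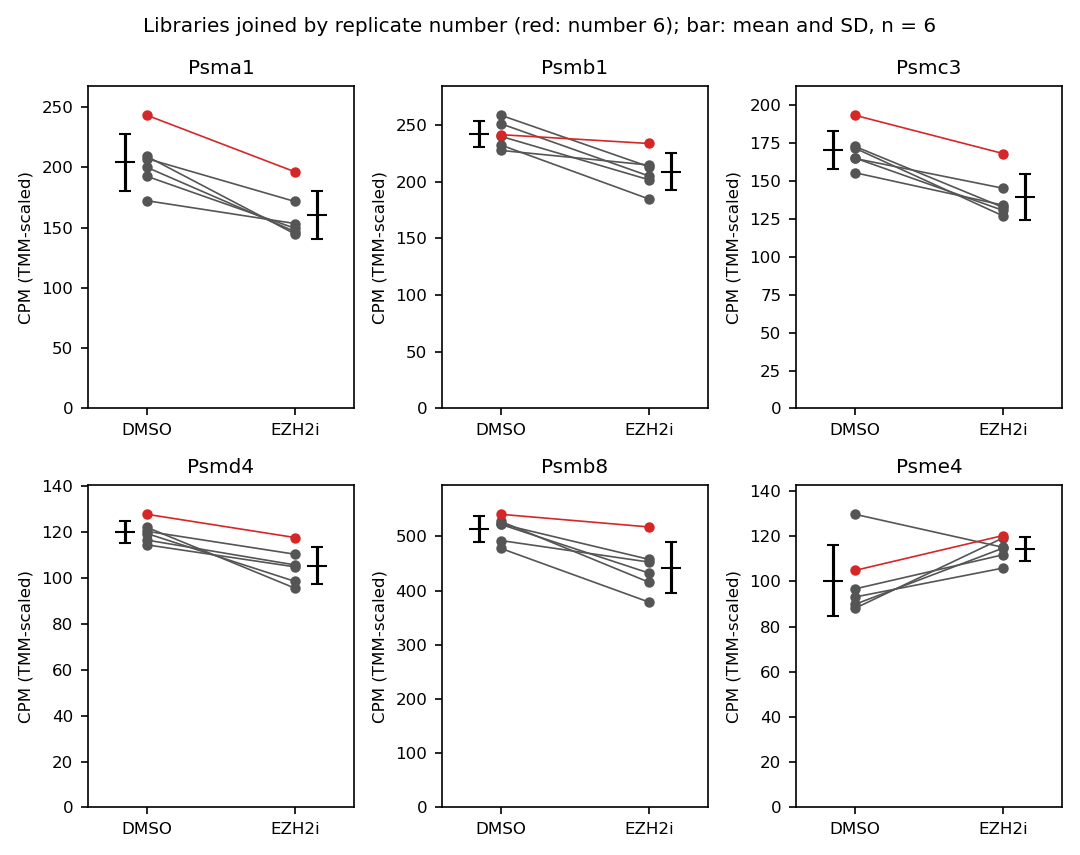
CPM (y axis, from 0) in each library of the 4 called genes and of Psmb8 and Psme4, with DMSO and EZH2i libraries of the same number joined by a line, number 6 in red, and the mean with SD beside the points. In the 4 called genes every line falls, and the red EZH2i point is the highest of its group.

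Within the core, all 14 tested genes had a mean difference below 0, with a median log2 fold change of -0.21. Apart from Psma1 and Psmb1, 0 of them were called without the block. With it 10 of the 14 fell, where 24.3% of all genes were called lower. In the alpha ring, which gates the entrance of the barrel, 6 of 7 genes fell with the block, and Psma5 did not. In the beta ring the count was 4 of 7 (Psmb1, Psmb2, Psmb3 and Psmb6). Psmb2 had the largest difference of the core among genes not called, -0.38 (SE 0.146, adjusted p = 0.0902, blocked 0.000387). Its levels ran from 136 through 220 to 284 CPM in DMSO and from 141 through 164 to 204 CPM in EZH2i, with DMSO library 4 the lowest of all 12. Psmb4 was level between the groups, at 137 ± 10.5 CPM and 137 ± 36.5 CPM (SD, n = 6), and EZH2i library 6 reached 195 CPM against 96.3 CPM in the lowest library of its group.

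In the 19S cap all 17 genes had a mean difference below 0, with a median log2 fold change of -0.24 (range -0.41 to -0.14). Within same-numbered libraries 14 of the 17 were lower in 6 of 6 numbers, where 19.2% of all genes were lower and 21.2% higher in 6 of 6. Without the block 2 of the 17 were called lower, against 6.05% of all genes and 11.7% of the most highly expressed genes. With it 17 of 17 fell, against 24.3% of all genes, and the share among the most highly expressed genes was not computed with the block. The 6 ATPases Psmc1 to Psmc6, the motor of substrate unfolding, were lower in 6 of 6 numbers each and had a median log2 fold change of -0.28. Psmc5 had the largest difference of all members, -0.41 (SE 0.197, adjusted p = 0.173, blocked 2.46e-05). Its lowest, median and highest levels were 76.2, 81.3 and 133 CPM in DMSO and 52.2, 59.6 and 114 CPM in EZH2i, where the highest value of each group was library 6. In the 8 lid subunits, which include the deubiquitinase Psmd14, the median was -0.22 and 8 of 8 fell with the block, against 0 without it. Among the scaffold and ubiquitin-receptor genes Psmd1, Psmd2 and Psmd4 the median was -0.19.

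Within a replicate number, 44, 45, 44, 38, 36 and 31 of the 46 members were lower in the EZH2i library for numbers 1 to 6 in turn. Of all tested genes 49.6%, 50.8%, 49.1%, 51.8%, 49.7% and 52.5% were lower in the same numbers. The median log2 difference of the members ran from -0.36 in number 2 to -0.06 in number 6. In the cap 15 to 17 of the 17 genes were lower in each number. Of the 14 core genes 14 were lower in each of numbers 1 to 3, 12 in numbers 4 and 5, and 8 in number 6.

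**Figure D4:**
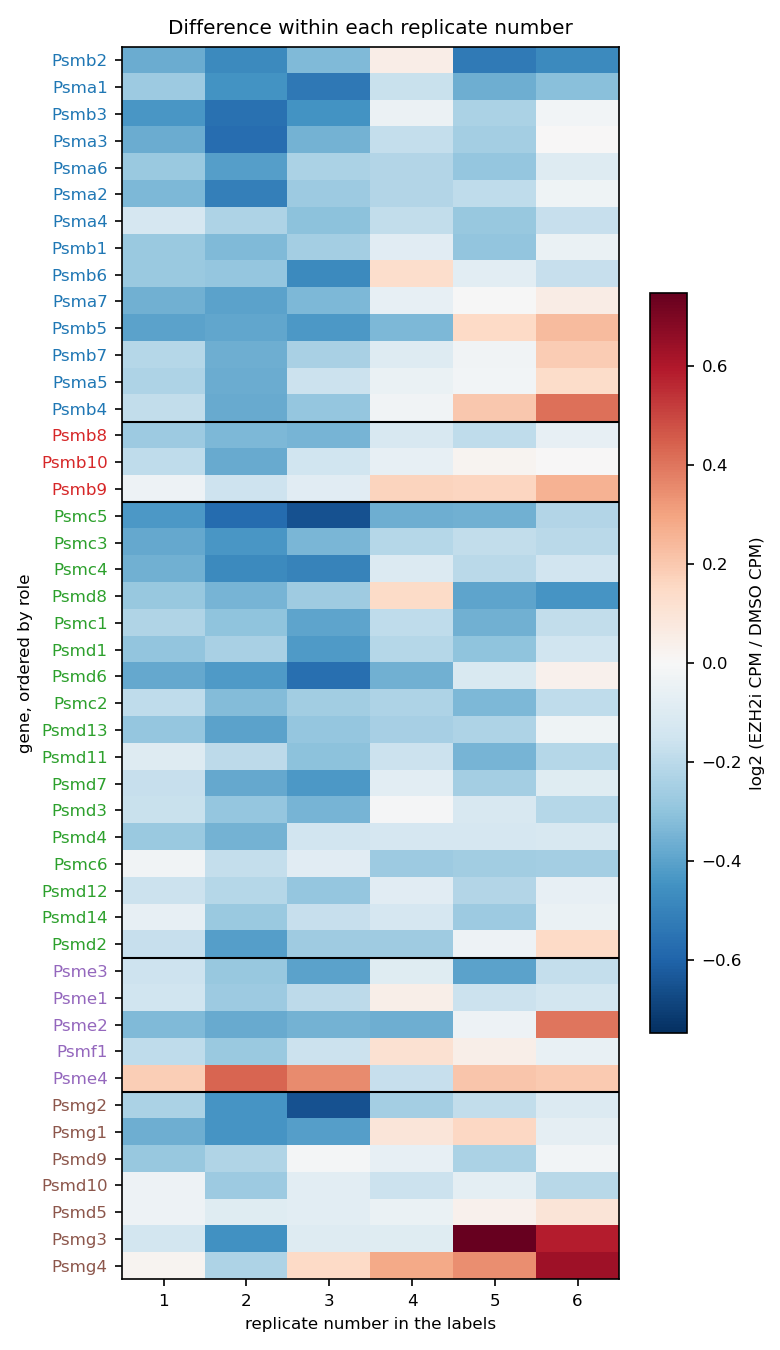
Log2 ratio of the EZH2i to the DMSO library (colour scale) for each tested gene (rows, grouped by role with coloured names) in each of the 6 replicate numbers (columns). Blue is lower with EZH2i, and blue fills most of numbers 1 to 3 and least of number 6.

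None of the immunoproteasome subunits, which replace the catalytic beta subunits, was called without the block. Psmb8 fell with it, where 24.3% of all genes were called lower. Psmb8, at chromosome 17 from 34197721 to 34201454, is the replacement of Psmb5. It ran from 478 through 522 to 541 CPM in DMSO and from 379 through 443 to 518 CPM in EZH2i, with EZH2i library 6 the only one inside the DMSO range. It was lower in 6 of 6 numbers and just missed the threshold, with a log2 fold change of -0.22 (SE 0.073, adjusted p = 0.0534). With the block it was called (0.00257), as it was with DESeq2 (0.0235). Psmb9, the replacement of Psmb6 (chromosome 17, 34181987 to 34187764), ran from 184 through 234 to 242 CPM in DMSO and from 210 through 227 to 272 CPM in EZH2i. The groups overlapped widely and the log2 fold change was 0.05 (SE 0.084, adjusted p = 0.727). It rests on DMSO library 6, the lowest at 184 CPM: without that library the value was -0.0067. Psmb10, the replacement of Psmb7 (chromosome 8, 105935735 to 105938444), ran from 123 through 131 to 143 CPM and from 101 through 119 to 143 CPM. Its log2 fold change was -0.12 (SE 0.077, adjusted p = 0.312, without both libraries numbered 6 0.0488).

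The constitutive partners were not called with all 12 libraries in the test on group alone. Psmb5, which carries the chymotrypsin-like site, was at 47.2 ± 9.50 (DMSO) and 43.0 ± 17.5 CPM (EZH2i; SD, n = 6 each), and library 6 was the highest of each group at 65.0 and 76.7 CPM. Its log2 fold change was -0.13 (adjusted p = 0.724), and this value rested on library 6, since it was -0.02 without DMSO library 6, -0.38 without EZH2i library 6 (adjusted p = 0.0547) and -0.27 without both (0.0509). Psmb6, with the caspase-like site, was at 120 ± 19.4 and 105 ± 12.97 CPM, and its log2 fold change was -0.20 (adjusted p = 0.244, 0.0227 with the block and 0.0478 without both libraries numbered 6). Psmb7, with the trypsin-like site, was at 110 ± 10.9 and 102 ± 23.9 CPM, a log2 fold change of -0.10 (adjusted p = 0.638). For Psmb7 it was -0.05 without DMSO library 6, and the gene was called lower without EZH2i library 6 (-0.24, adjusted p = 0.0375) and without both (-0.18, 0.0314).

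The balance between each immunosubunit and the subunit it replaces was taken as a log2 ratio of their counts within a library, which needs no scaling between libraries. For Psmb8 to Psmb5 it was 3.46 ± 0.23 in DMSO and 3.44 ± 0.37 in EZH2i (SD, n = 6 each), with a two-sided exact permutation p of 0.864. For Psmb9 to Psmb6 it was 0.92 ± 0.35 and 1.17 ± 0.23, a difference of 0.24 in the direction of the immunosubunit that held in 6 of 6 numbers but gave an exact permutation p of 0.193 (0.578 adjusted over the 3 ratios). For Psmb10 to Psmb7 it was 0.26 ± 0.09 and 0.26 ± 0.17, with an exact permutation p of 1.0. The smallest p that 6 against 6 libraries allow is 0.00216. Library 6 held the lowest ratio of its group in all 3 pairs. Per base of exon, the immunosubunits made up 66.3 ± 2.72% of the summed level of the 6 catalytic genes in DMSO and 66.9 ± 3.46% in EZH2i, a difference of 0.622 percentage points that was smaller than either SD. Without both libraries numbered 6 the shares were 67.3 ± 0.862% and 68.3 ± 0.895%, a difference slightly larger than either SD that was not tested.

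**Figure D5:**
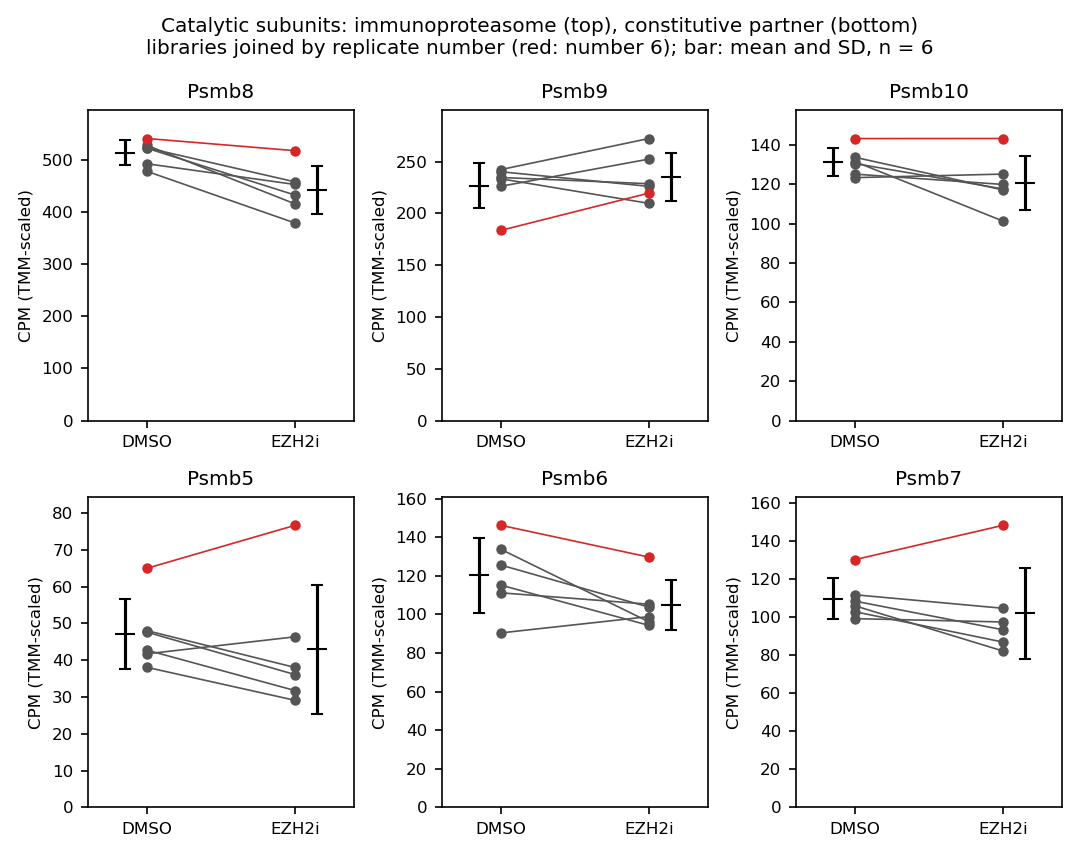
CPM (y axis, from 0) of the 3 immunosubunits (top) and the 3 constitutive subunits they replace (bottom) in each library, joined by replicate number, with number 6 in red and the mean with SD (n = 6) beside the points. Psmb8 falls in every number, whereas Psmb9 shows no common direction, and the red lines of Psmb5 and Psmb7 rise.

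Of the 5 genes of activators, which open the core in place of the cap, and of the inhibitor, 0 were called without the block (0 at an unadjusted p under 0.05, and 0 by DESeq2 or limma). With the block Psme1 and Psme3 fell and Psme4 rose, where 24.3% of all genes were called lower and 24.7% higher. Psme1 and Psme2 form the interferon-inducible PA28 ring. Psme1 was at 413 ± 39.2 (DMSO) and 374 ± 28.8 CPM (EZH2i; log2 fold change -0.15, adjusted p = 0.204, blocked 0.0278), and Psme2 was at 206 ± 29.5 and 187 ± 57.8 CPM (-0.14, adjusted p = 0.627). EZH2i library 6 was the highest for Psme2, at 296 CPM against 138 to 200 CPM in the other 5, and without it Psme2 was called lower (-0.32, adjusted p = 0.0448). Psme2 is uncertain, because reads from its close copy Psme2b can be counted to either. Psme3, the nuclear PA28 gamma, was at 215 ± 78.0 and 182 ± 72.1 CPM, a spread made by library 6 (368 CPM in DMSO and 326 CPM in EZH2i, against at most 202 CPM in the other 10). Its log2 fold change was -0.24 (SE 0.250, adjusted p = 0.560, blocked 0.00126), lower in 6 of 6 numbers. Leaving out DMSO library 6 moved Psme3 to -0.02, and leaving out EZH2i library 6 moved it to -0.49 (adjusted p = 0.0609). Psme4, which encodes the PA200 activator, was the 1 member that rose in the fit with the block. It ran from 88.1 through 94.9 to 130 CPM in DMSO and from 106 through 115 to 120 CPM in EZH2i. DMSO library 4, at 130 CPM, was above every EZH2i library, and in the other 5 numbers EZH2i was higher. The log2 fold change was 0.19 (SE 0.090, adjusted p = 0.166, blocked 0.0201, without DMSO library 4 0.00812). Psmf1, the PI31 inhibitor, was at 57.9 ± 3.26 and 54.5 ± 2.75 CPM (-0.09, adjusted p = 0.342).

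Of the assembly chaperones, which build the core and the base, 5 of 7 were below 0 and 2 above. Without the block 0 were called (0 at an unadjusted p under 0.05, and 0 by DESeq2 or limma). With it 1 of 7 was lower, against 24.3% of all genes. The 1 was Psmg2, at 30.5 ± 8.76 (DMSO) and 25.1 ± 9.75 CPM (EZH2i; log2 fold change -0.28, adjusted p = 0.440, blocked 0.00277). Psmg3 and Psmg4, both core chaperones, had log2 fold changes of 0.16 (adjusted p = 0.703) and 0.23 (0.299). The base chaperones Psmd5, Psmd9 and Psmd10 had -0.01, -0.14 and -0.14. Psma8, the testis alpha subunit, summed to 5 counts over the DMSO libraries and 15 over the EZH2i libraries, and Psmb11, the thymus beta subunit, to 11 and 13. Neither passed the filter on low counts, and neither was called when that filter was left out (adjusted p = 0.281 for Psma8 and 0.958 for Psmb11).

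Compared per kilobase of exon (CPM divided by the length of all exons of the gene in GENCODE M21), the highest DMSO levels were those of Psme1 (187 ± 17.7), Psmb2 (181 ± 39.7) and Psmb8 (152 ± 7.03), followed by Psma6 (119 ± 14.7) and Psme2 (117 ± 16.7), SD over 6 libraries. Psme1 and Psmb2 did not differ beyond their SDs, nor did Psma6 and Psme2. The lowest were those of the chaperones Psmg3 (4.10 ± 0.979) and Psmd9 (3.01 ± 0.240). The same 3 genes led when the length of the principal transcript was used, but Psma6 then ranked 12 in place of 4, and the lowest pair was Psmd5 and Psmd9.

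Other genes of the pathway were taken from 4 lists. Of 20 tested proteins that bind or assemble the proteasome without carrying a Psm name, 1 rose and 1 fell without the block. Of all genes 13.3% were called higher there, 6.05% lower and 19.3% in either direction. With the block 1 of the 20 rose and 10 fell, against 24.7% of all genes higher and 24.3% lower. In either direction 55% of the 20 were called with it, against 49% of all genes. The median log2 fold change of the 20 was -0.17, with 18 below 0. The riser was AI314180, the mouse Ecm29 proteasome adaptor (111 ± 16.9 to 138 ± 16.6 CPM, log2 fold change 0.32, adjusted p = 0.0499), and the gene that fell was Zfand2b, a shuttle that brings ubiquitinated cargo to the cap (23.5 ± 3.33 to 18.2 ± 2.18 CPM, -0.37, adjusted p = 0.0341). Of 16 regulators of proteasome and immunoproteasome transcription, 3 rose and 1 fell, with a median of -0.09. Among the risers were Ifngr2, a chain of the interferon gamma receptor (18.5 ± 2.54 to 31.7 ± 7.28 CPM, 0.78, adjusted p = 0.00429) and Stat3 (194 ± 14.8 to 245 ± 25.8 CPM, 0.34, adjusted p = 0.0108). Nfyb, a subunit of the CCAAT-binding factor NF-Y, fell (67.0 ± 2.99 to 58.6 ± 2.63 CPM, -0.19, adjusted p = 0.0266). Irf1, an interferon-induced factor that is known to induce immunoproteasome genes, was at 0.34 on the same log2 scale (adjusted p = 0.170, blocked 7.15e-05).

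Of 10 ubiquitin genes and activating enzymes, 0 were called (0 at an unadjusted p under 0.05, 0 with DESeq2 and 0 with limma voom), and 3 of 10 fell with the block, near the 24.3% of all genes lower there. The smallest p was that of Uba1, the main ubiquitin-activating enzyme (475 ± 51.0 to 423 ± 34.0 CPM, -0.17, adjusted p = 0.167, blocked 0.00935). Of 15 genes for class I peptide supply and loading, 0 were called by edgeR (1 higher and 1 lower with DESeq2). In edgeR 3 of the 15 had an unadjusted p under 0.05, as did 3805 of all 11727 tested genes. The median of the 15 was -0.18. With the block 7 of the 15 fell and 1 rose, against 24.3% of all genes lower and 24.7% higher. In either direction 53.3% were called with it, against 49% of all genes. The riser was H2-K1, a class I heavy chain with close relatives among which reads can be split (2217 ± 183 to 2587 ± 223 CPM, 0.22, adjusted p = 0.0595, blocked 0.00173).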

How the data were processed

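RNA sequencing counts of 12 libraries, 6 of CD8+ T cells given DMSO and 6 given an EZH2 inhibitor, were used as deposited, in tables of whole-number counts for each symbol. The RNA was polyadenylated, the kit a stranded TruSeq and the reads single-end from a NextSeq 500, per the labels' protocols. The submitters' processing notes name build GRCm38 (mm10), featureCounts, TopHat2 2.1.1, SAMtools 1.9, Trimmomatic 0.38 and FastQC 0.11.7. Annotation, strand setting and the handling of reads with several matches are not stated in those notes or the labels, so genes with close copies, overlapping genes and antisense partners are uncertain.

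Counts were fitted in R 4.3.3 with edgeR 4.0.16 (filterByExpr, TMM scaling, two-sided quasi-likelihood test on group alone) over all 11727 genes kept, with a call where the Benjamini-Hochberg adjusted p was under 0.05. CPM values are relative to the TMM-scaled library, and each SE was taken as the absolute log2 fold change over the root of F. Ratios were tested by exact permutation with scipy 1.17.1. Alternatives were upper-quartile and DESeq2 size-factor scaling, no expression filter, a filter of 5 CPM in 6 libraries, DESeq2 1.42.0, limma 3.58.1 (voom), the replicate block, ratios of CPM plus 1, and leaving out single libraries or both numbered 6. Leaving out number 6 together with the block, and the principal transcript length, were chosen after seeing the data. The fit was tested on simulated data.

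The members, the lists and the rule for genes named were chosen with earlier results of these data known. The rule names the catalytic subunits, the activators and inhibitor, the called members, and up to 4 called genes of each list or the one with the smallest p. Other genes named (Psmc5, Psmb2, Psmb4, the chaperones, Irf1 and the markers) were picked after their values were seen. Same-numbered libraries deviated together from their group means, with r across genes of 0.289, 0.565, 0.390, 0.608, 0.381 and 0.894 for numbers 1 to 6, all over the limit of 0.1, so blocked values are printed beside those from the fit on group alone, from which the calls are taken unless the block is named. What a number marks is not stated in the labels. Without number 6 the r of number 5 was -0.0278, under that limit, so the pairing of numbers 1 to 5 is not settled. No r between libraries of different numbers was taken for comparison. Some genes of the lists and markers are counted but not reported here by name.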

Additional observations from a re-analysis of the deposited data

Results flagged for a closer look

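Each member was checked, within each group of 6 libraries, for a highest or lowest library whose gap to the next took more of the group's whole range than Dixon's 95% critical value for 6 allows. Chance flags about 1 in 20 groups of independent values. Of the 46 members, 21 were marked in DMSO and 26 in EZH2i, and library 6 was the marked one in 20 and 26. The members share the same libraries, and the share of all tested genes marked in this way was not computed. Library 6 held the maximum of its group in 35.7% of all tested genes in DMSO and 36.5% in EZH2i.

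In DMSO library 6, the marked core genes, each the highest of its group, were Psma2 (253 CPM), Psma3 (186 CPM), Psma4 (263 CPM), Psma5 (145 CPM), Psma6 (183 CPM), Psma7 (202 CPM), Psmb5 (65 CPM). The marked cap genes, also the highest, were Psmc1 (176 CPM), Psmc2 (161 CPM), Psmc5 (133 CPM), Psmd1 (248.7 CPM), Psmd6 (96.9 CPM), Psmd7 (167 CPM), Psmd12 (137 CPM), Psmd14 (180 CPM). The chaperones and the activator marked as highest were Psmd5 (56.1 CPM), Psmg1 (33.5 CPM), Psmg2 (48 CPM), Psme3 (368 CPM). Psmb9 was the 1 gene for which DMSO library 6 was the lowest, at 184 CPM. Psmd10, at 33.2 CPM, was marked in DMSO library 2, as the highest.

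In EZH2i library 6, the marked core genes, each the highest of its group, were Psma2 (247 CPM), Psma3 (186 CPM), Psma4 (234 CPM), Psma5 (160 CPM), Psma6 (171 CPM), Psma7 (209 CPM), Psmb3 (164 CPM), Psmb5 (76.7 CPM), Psmb6 (130 CPM), Psmb7 (148 CPM). The marked cap genes, also the highest, were Psmc1 (154 CPM), Psmc2 (141 CPM), Psmc4 (158 CPM), Psmc5 (114 CPM), Psmd1 (224 CPM), Psmd2 (294 CPM), Psmd6 (99.2 CPM), Psmd7 (157 CPM), Psmd12 (131 CPM), Psmd13 (143 CPM), Psmd14 (174 CPM). The chaperones and the activator marked as highest were Psmd5 (60 CPM), Psmg1 (32 CPM), Psmg2 (44.6 CPM), Psmg3 (24.6 CPM), Psme3 (326 CPM).

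The summed measures marked the same libraries. The share of counts in the 48 genes was 0.784% in DMSO library 6 and 0.793% in EZH2i library 6, each the highest of its group. The immunosubunit share per length was 61.0% and 60.0% in those libraries, each the lowest of its group. The cause of these values was not tested.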

How the results depend on the processing

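Counts of genes called moved with the setting, and the cause was not tested except where fewer samples or genes enter by construction. With upper-quartile scaling 1 member fell (core 1, cap 0), 0 proteasome-bound proteins and 0 regulators fell, 1 class I gene rose, and 347 of all genes fell. With DESeq2 size factors in edgeR 1 immunosubunit and 1 class I gene fell and 0 proteasome-bound proteins rose. Without an expression filter 1 cap gene and 1 class I gene fell and 0 proteasome-bound proteins rose. With the filter of 5 CPM in 6 libraries 0 members fell (core 0, cap 0), 0 proteasome-bound proteins and 0 regulators fell, 1 class I gene rose, and over all genes 935 rose and 363 fell. With DESeq2 8 members fell (1 immunosubunit and 5 cap genes among them), 2 regulators fell, 1 class I gene rose and 1 fell, and 1125 of all genes fell.

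With the replicate block, on the pairing described with the processing, 31 members fell and 1 rose: 10 core, 1 immunosubunit, 17 cap, 1 chaperone and 2 activator genes fell, and 1 activator rose. Of the lists, 10 proteasome-bound proteins fell, 6 regulators rose and 5 fell, 3 ubiquitin genes fell, and 1 class I gene rose and 7 fell, with 2892 of all genes higher and 2849 lower. For the Psmb9 to Psmb6 ratio the block gave an exact sign-flip p of 0.03125, 0.09375 adjusted over the 3 ratios. The unadjusted value is the smallest that 6 pairs allow, so beside the other ratios the adjusted value could not pass the threshold and says nothing either way.

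Without both libraries numbered 6, 34 members fell (12 core, 2 immunosubunits, 16 cap, 1 chaperone and 3 activator genes), as did 11 proteasome-bound proteins, 3 regulators, 4 ubiquitin and 7 class I genes, while 6 regulators and 1 class I gene rose, with 2815 of all genes higher and 2455 lower. With the replicate block as well, 36 members fell and 1 rose (13 core, 2 immunosubunits, 17 cap, 1 chaperone and 3 activator genes lower, 1 activator higher), as did 12 proteasome-bound proteins, 4 regulators, 4 ubiquitin and 7 class I genes, while 6 regulators and 1 class I gene rose, with 3064 of all genes higher and 2843 lower. Under both settings the Psmb8 to Psmb5 difference turned to 0.0271 and the Psmb10 to Psmb7 difference to 0.0373 on the log2 scale.

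Leaving out 1 library at a time, the members that fell ran from 0 to 29 and those that rose from 0 to 1. Falls ran from 0 to 11 in the core, 0 to 1 among immunosubunits, 0 to 15 in the cap, 0 to 1 among chaperones and 0 to 1 among activators, of which 0 to 1 rose. In the lists, proteasome-bound proteins ran from 0 to 1 higher and 0 to 8 lower, regulators from 3 to 5 higher and 0 to 2 lower, ubiquitin genes from 0 to 3 lower, and class I genes from 0 to 1 higher and 0 to 3 lower. Over all genes the ranges were 1297 to 2262 higher and 435 to 1817 lower. The Psmb8 to Psmb5 difference ran from -0.11 to 0.11, the Psmb10 to Psmb7 difference from -0.0350 to 0.0623, the Psmb9 to Psmb6 difference from 0.13 to 0.34, and the Psmb9 fold change from -0.0067 (without DMSO library 6) to 0.0809. Over the 23 genes picked by the naming rule and all settings, 382 values kept direction and side of the threshold, 61 lost the call, 39 gained it and 1 changed sign. Genes named outside that rule, such as Psmc5, Psmb2 and Irf1, are not in this tally. Psma8 and Psmb11, with 5 to 15 counts summed over a group, entered the test only without the expression filter.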
